A study of Mus musculus with 16 samples.

Results

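The 9 genes of heme metabolism, Alas1, Alad, Uros, Urod, Cpox, Ppox, Fech, Hmox1 and Hmox2, were followed across gonadal and subcutaneous fat of female mice. They were chosen by name for their place in heme synthesis or breakdown, and their symbols were matched to the gene identifiers of the expression tables. All 9 were present among the 30325 genes of the gonadal table and the 30946 genes of the subcutaneous table, and all 9 passed the filters on low values in both. The mice came from the C57BL/6J background and carried, per the labels, a null allele of Lcn2 in every group, the controls included. Lcn2 encodes lipocalin-2, a secreted protein that binds iron-carrying siderophores. At 8 weeks of age they were given an AAV8 vector in the bloodstream that carried either LCN2 or green fluorescent protein (GFP). In both vectors the adiponectin promoter, active in fat cells, drove expression, and a target site for microRNA-122 marked the transcript for breakdown in liver. All mice ate a HF/HS diet and were sampled at 16 weeks. Per depot, 4 samples had the LCN2 vector and another 4 the GFP vector, which makes 16 samples in all. The labels do not say whether the same replicate number marks the same mouse in the 2 depots, nor that each sample is a separate mouse, so the p-values rest on the spread among these samples only, which may be technical.

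Heme is made in a chain of enzymes that starts and ends in the mitochondrion. Alas1 makes 5-aminolevulinate, the step that limits the pathway in tissues other than red blood cell precursors, cytosolic enzymes assemble and trim a porphyrin ring, and Fech inserts iron into it. Heme oxygenases open the ring and release iron, carbon monoxide and biliverdin, Hmox1 being the inducible form that macrophages and stressed cells use, and Hmox2 the constitutive form. Fat cells need heme for the respiratory chain and for other heme proteins such as cytochromes.

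Gonadal libraries held between 35173260 and 42890102 reads, as recovered from the deposited values, and the lowest read number behind any value of the 9 genes was 338. The depth of the subcutaneous samples is unknown. Lcn2 itself, which checks the vectors, had normalized counts of 186, 189, 522 and 481 in gonadal LCN2 samples and 103, 62.1, 70.0 and 89.5 in gonadal GFP samples. Its rlog values, a log2 scale, were 8.74, 8.49, 9.45 and 9.82 in subcutaneous LCN2 samples and 7.76, 8.32, 8.23 and 8.37 in subcutaneous GFP samples. LCN2 samples lay above all GFP samples in both depots, but Lcn2 did not pass limma's threshold after adjustment over all genes (limma, adjusted p = 0.108 in gonadal and 0.308 in subcutaneous fat), whereas on the recovered gonadal reads DESeq2 called it (adjusted p = 1.28e-05) and edgeR did not (adjusted p = 0.126). Lcn2 was thus not at 0 in GFP samples, and values per gene cannot tell which part of the null allele its reads come from. The 10 adipocyte markers were all measured in both depots, with summed normalized counts of 802369 to 1001760 in gonadal LCN2 samples and 804215 to 1346840 in gonadal GFP samples.

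Some libraries carried transcripts of other tissues. In gonadal fat, the median normalized count of 12 skeletal muscle markers was 3977 in LCN2 replicate 4 and 161 in GFP replicate 2, and at most 76.1 in the other 6. By the sum of these markers LCN2 replicate 4 stood apart at 72084, while GFP replicate 2, at 3884, lay below LCN2 replicate 1 at 7010, and the other 5 had 1214 to 3801. The median of 12 hepatocyte genes was 980 and 2577 in LCN2 replicates 1 and 2 and 895 in GFP replicate 1, and between 85.8 and 222 in the other 5. Mesothelial markers were lower with LCN2 for 12 of 12 genes in gonadal fat. They summed to 3493 to 8485 with LCN2 and 8011 to 16540 with GFP. Limma called 0 of the 12, beside 0.102% of all genes tested. At an unadjusted p under 0.05 in the limma fit were 9 of the 12, beside 14.8% of all genes. The groups did not overlap for 6 of the 12, beside 9.11% of all genes. In subcutaneous fat, B and T cell markers summed to 14058 and 8306, as linear values of rlog, in GFP replicates 1 and 2. They summed to 3400 in LCN2 replicate 4 and to between 636 and 820 in the others. GFP replicates 1 and 2 also had the highest median rlog of hepatocyte genes, 6.84 and 8.33, against at most 6.05 in the others. Gonadal GFP replicate 4 stood apart over all genes, with a mean chi-square per gene of 158, 188 and 216 between its reads and those of the other GFP libraries, against 49.1 to 76.5 among those 3.

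No heme gene passed the test for a difference between the LCN2 and GFP vectors in either depot. In gonadal fat 0 of 9 passed an adjusted p of 0.05, with adjusted p-values between 0.369 and 0.952, and 0.102% of the 19536 genes tested passed (limma on log2 of the normalized count plus 1). In subcutaneous fat 0 of 9 passed, with adjusted p-values between 0.328 and 0.916, and 0% of the 20302 genes tested passed (limma on rlog). At an unadjusted p under 0.05 there were 0 heme genes in gonadal fat, where 14.8% of all genes lay under it, and 1 in subcutaneous fat, Cpox, where 14% did. On recovered gonadal reads, edgeR and DESeq2 each called 0 of the 9 as well, where edgeR called 0.0358% and DESeq2 3.84% of the genes tested. The groups overlapped for each of the 9 genes in both depots, whereas they did not overlap for 9.11% of gonadal and 7.08% of subcutaneous genes. The median absolute difference of the 9 genes was 0.09 on the log2 scale in gonadal fat, against 0.16 over all genes tested, and 0.11 in subcutaneous fat, against 0.09. These tests do not show that the genes are equal between vectors, since the 95% intervals reached 0.60 to either side of the estimate for the least precise gene in gonadal fat and 0.32 in subcutaneous fat.

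**Figure D1:**
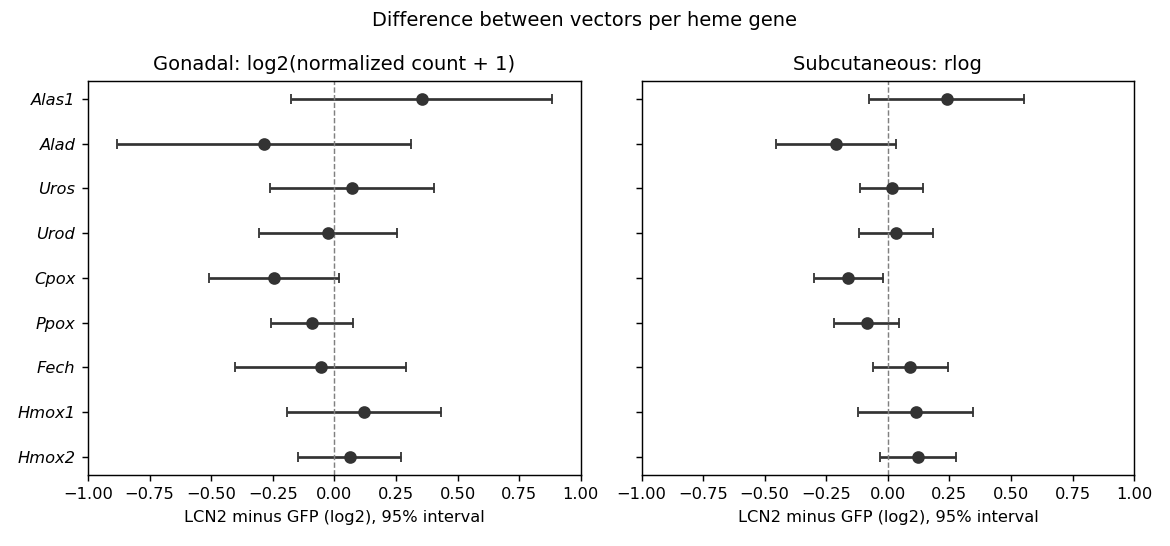
Difference of each heme gene between vectors, LCN2 minus GFP, as log2 of the normalized count plus 1 in gonadal fat (left) and as rlog in subcutaneous fat (right). Points are estimates of the limma fit over all genes and bars are 95% intervals. All intervals hold 0 except that of Cpox in subcutaneous fat, which runs from -0.30 to -0.02.

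Alas1 (ENSMUSG00000032786, GRCm38 chromosome 9, 106233455 to 106248654, minus strand) encodes the mitochondrial enzyme that commits glycine and succinyl-CoA to heme. Its normalized counts in gonadal fat were 6844, 6968, 6267 and 7236 in LCN2 samples, against 5073, 8388, 5631 and 3377 in GFP samples. The LCN2 samples lay close together, inside the wide span of the GFP samples, whose replicate 2 was the highest and replicate 4 the lowest of all 8. The means were 6829 ± 409 with LCN2 and 5617 ± 2081 with GFP (SD, n = 4 each), a log2 difference of 0.35 ± 0.23 (SE) with a 95% interval of -0.17 to 0.88 (limma, adjusted p = 0.531). That estimate rested on single controls, being 0.13 without GFP replicate 4 and 0.57 without GFP replicate 2. Subcutaneous rlog values were 12.04, 12.38, 12.50 and 12.41 in LCN2 samples, against 11.97, 12.32, 12.26 and 11.82 in GFP samples. Here 3 LCN2 samples exceeded every GFP sample and LCN2 replicate 1 fell among them, with a difference of 0.24 ± 0.14 (SE), a 95% interval of -0.08 to 0.55 and an adjusted p of 0.452 (limma). It was 0.15 without GFP replicate 4. Rlog draws values towards a gene's mean, so differences on it can be understated, by an amount that was not measured for Alas1.

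Alad (ENSMUSG00000028393, GRCm38 chromosome 4, 62509169 to 62519918, minus strand) joins 2 molecules of 5-aminolevulinate into porphobilinogen in the cytosol and is the zinc enzyme that lead inhibits. Gonadal normalized counts were 1174, 1164, 1384 and 963 in LCN2 samples, against 1397, 2115, 1682 and 813 in GFP samples. As for Alas1, GFP replicate 2 was the highest and GFP replicate 4 the lowest sample, and the LCN2 samples sat between them. Means were 1171 ± 172 with LCN2 and 1502 ± 546 with GFP (SD, n = 4 each), and the log2 difference was -0.29 ± 0.26 (SE), with a 95% interval of -0.88 to 0.31 (limma, adjusted p = 0.670). Without GFP replicate 4 it was -0.55 with an adjusted p of 0.143, and without GFP replicate 2 it was -0.09 (limma). In subcutaneous fat the rlog of Alad was 9.94, 9.97, 10.13 and 9.98 in LCN2 samples, against 10.03, 10.49, 10.30 and 10.05 in GFP samples. LCN2 replicate 3 alone reached into the GFP range, and the difference was -0.21 ± 0.11 (SE), with a 95% interval of -0.46 to 0.03 and an adjusted p of 0.400 (limma). Without GFP replicate 2 it was -0.12.

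The region before the start of Alad is shown, since Alad had the lowest adjusted p of the 9 genes under the alternatives tried in each depot. It holds the 250 bases before the RefSeq start of Alad that lies farthest upstream, chr4:62520064-62520313 on the minus strand of GRCm38.p6, and no exon of GENCODE M21 lies in it. Capitals mark every match, on either strand, to 5 letter patterns that were searched: CACGTG (E-box), TGANNNNGC (the core bound by small Maf proteins with Bach1 or Nfe2l2), the nuclear respiratory factor 1 palindrome, GGGCGG (GC box) and CCAAT.
Alad: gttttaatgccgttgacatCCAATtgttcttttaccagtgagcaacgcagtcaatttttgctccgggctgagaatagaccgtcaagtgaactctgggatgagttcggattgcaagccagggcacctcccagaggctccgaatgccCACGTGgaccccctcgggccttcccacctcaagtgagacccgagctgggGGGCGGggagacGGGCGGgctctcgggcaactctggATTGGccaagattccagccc
It held GGGCGG and CCAAT at 2 places each, CACGTG at 1 place, and neither of the other 2 patterns. Among 32851 RefSeq windows of 250 bases before a start, 32.7% held GGGCGG, 33.8% held CCAAT, 6.02% held CACGTG, 35.2% held TGANNNNGC and 3.74% held the palindrome. The like window of Alas1 lies within an exon of the transcript Alas1-207 and is not shown, nor are other RefSeq starts of Alad. A match is a description of the letters only.

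**Figure D2:**
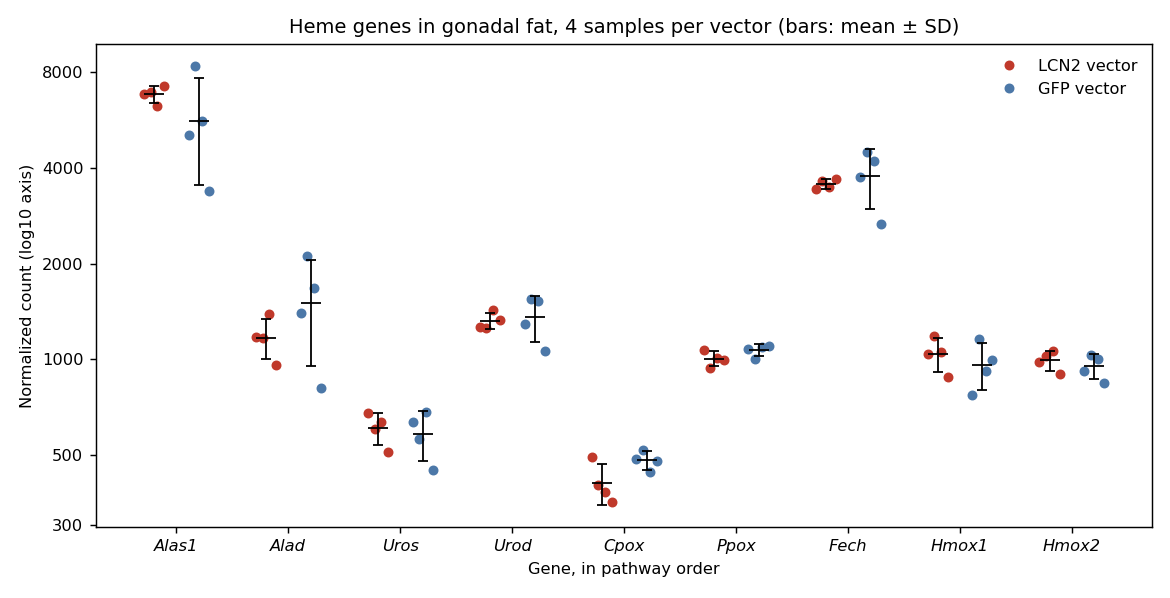
Normalized counts of the 9 heme genes in gonadal fat on a log10 axis, genes in pathway order, with the 4 LCN2 samples (red) left of the 4 GFP samples (blue) and bars for mean ± SD. The SD is larger with GFP than with LCN2 for all genes but Cpox and Ppox, and every pair of groups overlaps.

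The next enzymes turn porphobilinogen into a ring with its side chains trimmed. Uros (ENSMUSG00000030979, chromosome 7, 133686243 to 133710072, minus strand) closes the ring as uroporphyrinogen III. It had normalized counts of 680, 605, 634 and 513 in gonadal LCN2 samples and 636, 563, 684 and 447 in gonadal GFP samples, with replicate 4 the lowest of each group. Subcutaneous rlog values were 8.83, 8.88, 8.92 and 8.78 with LCN2 and 8.87, 8.79, 8.90 and 8.79 with GFP. Both sets overlapped along most of their range, and the log2 differences were 0.07 (95% interval -0.26 to 0.40) in gonadal and 0.02 (-0.11 to 0.14) in subcutaneous fat. Adjusted p-values were 0.875 and 0.916 (limma).

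Urod (ENSMUSG00000028684, chromosome 4, 116989965 to 116994413, minus strand) removes carboxyl groups from that ring. Its gonadal normalized counts were 1267, 1258, 1425 and 1331 in LCN2 samples and 1296, 1543, 1526 and 1063 in GFP samples. The LCN2 samples lay inside the GFP range, which GFP replicate 4 opened downwards. Subcutaneous rlog was 10.12, 10.18, 10.31 and 10.16 with LCN2 and 10.12, 10.19, 10.28 and 10.05 with GFP. Differences were -0.03 (95% interval -0.31 to 0.26) in gonadal and 0.03 (-0.12 to 0.18) in subcutaneous fat, with adjusted p-values of 0.952 and 0.838 (limma).

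Cpox (ENSMUSG00000022742, chromosome 16, 58670292 to 58717636, plus strand) is an enzyme of the mitochondrial intermembrane space that removes carboxyl groups from coproporphyrinogen III by oxidation. Its normalized counts in gonadal fat were 494, 401, 383 and 355 in LCN2 samples, against 486, 520, 441 and 477 in GFP samples. LCN2 replicates 2, 3 and 4 lay below every GFP sample, and LCN2 replicate 1 lay above 3 of them. The difference was -0.24 ± 0.12 (SE), with a 95% interval of -0.51 to 0.02 and an unadjusted p of 0.0643 in the limma fit (adjusted p = 0.369). Subcutaneous rlog values of Cpox were 8.86, 8.75, 8.72 and 8.67 in LCN2 samples, against 8.85, 8.97, 8.87 and 8.94 in GFP samples. Again LCN2 replicate 1 was the only one to overlap the GFP samples. The subcutaneous difference was -0.16 ± 0.06 (SE), with a 95% interval of -0.30 to -0.02 and an unadjusted p of 0.0293 in the limma fit (adjusted p = 0.328). An unadjusted p as small as that of Cpox was met by 17.4% of all genes in gonadal and 8.9% in subcutaneous fat.

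Ppox (ENSMUSG00000062729, chromosome 1, 171275990 to 171281186, minus strand), a flavin enzyme of the inner mitochondrial membrane, makes protoporphyrin. It kept within the narrowest log2 range of the 9 genes in gonadal fat, with normalized counts of 1073, 941, 1010 and 997 in LCN2 samples and 1081, 999, 1096 and 1102 in GFP samples. Subcutaneous rlog values were 9.99, 9.93, 9.84 and 9.94 with LCN2 and 10.08, 9.93, 9.95 and 10.08 with GFP. The groups overlapped in both depots, LCN2 replicate 1 lying above GFP replicate 2 in each, with differences of -0.09 (95% interval -0.26 to 0.08) in gonadal and -0.09 (-0.22 to 0.04) in subcutaneous fat. Neither passed the test (limma, adjusted p = 0.628 and 0.498). Without LCN2 replicate 2 the gonadal difference was -0.06.

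Fech (ENSMUSG00000024588, chromosome 18, 64452914 to 64490251, minus strand), ferrochelatase, is the iron-sulfur enzyme that completes heme. Gonadal normalized counts were 3425, 3650, 3492 and 3699 in LCN2 samples, against 3753, 4504, 4196 and 2659 in GFP samples. As with Alas1, the SD was 129 with LCN2 and 807 with GFP, and GFP replicate 4 was again the lowest sample. Rlog values in subcutaneous fat were 11.43, 11.47, 11.64 and 11.49 with LCN2 and 11.36, 11.42, 11.55 and 11.34 with GFP. The groups overlapped in both depots, with differences of -0.06 (95% interval -0.40 to 0.29) in gonadal and 0.09 (-0.06 to 0.24) in subcutaneous fat (limma, adjusted p = 0.911 and 0.525). The gonadal difference was -0.22 without GFP replicate 4, and the subcutaneous one 0.05 without LCN2 replicate 3.

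Hmox1 (ENSMUSG00000005413, chromosome 8, 75093621 to 75100589, plus strand) is the heme oxygenase that heme, oxidants and inflammation induce. Gonadal normalized counts were 1039, 1188, 1057 and 878 in LCN2 samples, against 774, 1159, 917 and 999 in GFP samples. The highest sample was LCN2 replicate 2 and the lowest GFP replicate 1, with the others mixed. Its difference was 0.12 ± 0.14 (SE), with a 95% interval of -0.19 to 0.43 (limma, adjusted p = 0.749). It was 0.02 without GFP replicate 1 and 0.21 without GFP replicate 2. In subcutaneous fat the rlog was 9.59, 9.53, 9.84 and 9.64 with LCN2 and 9.38, 9.76, 9.59 and 9.41 with GFP. LCN2 replicate 3 was the highest and GFP replicates 1 and 4 the lowest, for a difference of 0.11 ± 0.10 (SE), with a 95% interval of -0.12 to 0.34 (limma, adjusted p = 0.612). It was 0.05 without LCN2 replicate 3 and 0.19 without GFP replicate 2. Macrophage markers, 12 of 12 measured in each depot, summed to 24700 to 43695 normalized counts in gonadal LCN2 samples and 29996 to 40299 in gonadal GFP samples, without a called marker. In subcutaneous fat they summed, as linear values of rlog, to 23530 to 33874 with LCN2 and 23499 to 32511 with GFP, and their part in the level of Hmox1 was not tested. In whole tissue, fewer cells of a type and less RNA per cell cannot be told apart.

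Hmox2 (ENSMUSG00000004070, chromosome 16, 4726361 to 4766742, plus strand) had normalized counts of 978, 1024, 1065 and 901 in gonadal LCN2 samples and 921, 1034, 1004 and 844 in gonadal GFP samples. Replicate 4 was the lowest of each group, and the difference was 0.06 (95% interval -0.15 to 0.27; limma, adjusted p = 0.808). It was 0.01 without GFP replicate 4 and 0.11 without LCN2 replicate 4. Subcutaneous rlog values were 9.73, 9.74, 9.95 and 9.74 in LCN2 samples and 9.63, 9.73, 9.73 and 9.58 in GFP samples. Only LCN2 replicate 3 stood well apart, at 9.95, and the difference was 0.12 ± 0.07 (SE), with a 95% interval of -0.03 to 0.28 (limma, adjusted p = 0.436). Without LCN2 replicate 3 it was 0.07. Of the exonic bases of Hmox2, 40.2% overlap Cdip1 on the opposite strand, and those of Ppox overlap B4galt3 over 17.5%, those of Alas1 overlap 4930500F10Rik over 7.53% and those of Cpox overlap Gpr15 over 3.06%. The libraries were stranded, but the strand setting of the counting is not given in the sources used here. Reads of these partners thus cannot be told apart from those of the heme genes. In gonadal fat the mean normalized count was 2560 for Cdip1, 304 for B4galt3, 7.53 for 4930500F10Rik and 1.09 for Gpr15. The last of these, Gpr15, and 4930500F10Rik lay far below the counts of Cpox and Alas1 given above.

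**Figure D3:**
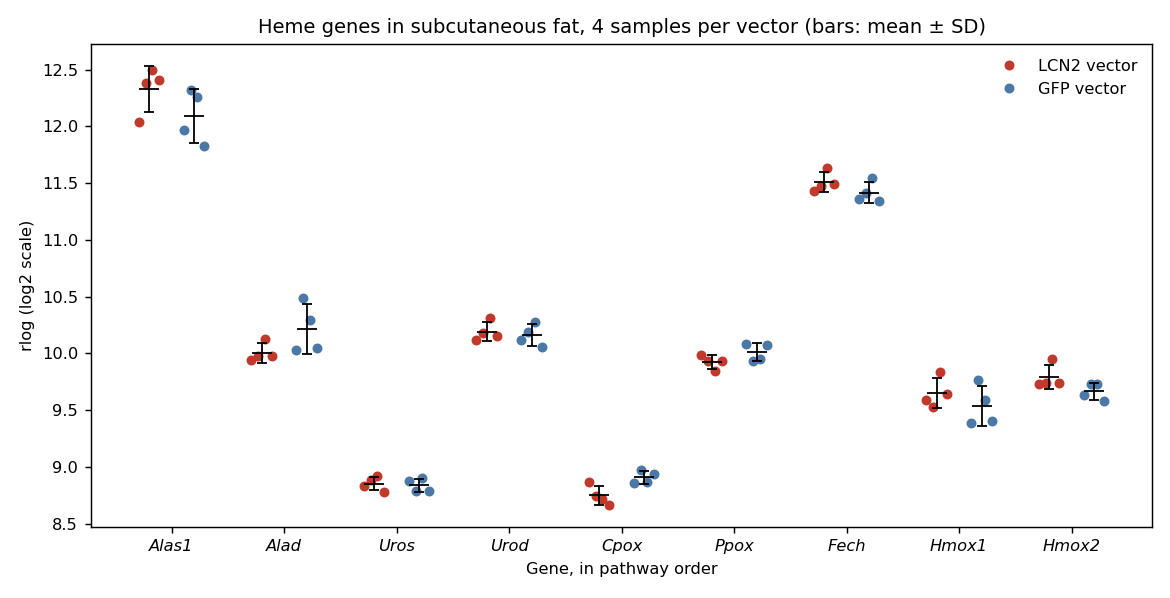
Rlog values, on a log2 scale, of the 9 heme genes in subcutaneous fat, genes in pathway order, with the 4 LCN2 samples (red) left of the 4 GFP samples (blue) and bars for mean ± SD. The groups overlap for all 9 genes, LCN2 replicate 1 being the only LCN2 sample among the GFP samples for Cpox.

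Several heme genes were high or low in the same gonadal samples. GFP replicate 4 was the lowest of the 8 samples for 6 of the 9 genes and GFP replicate 2 the highest for 5. Over all genes tested, GFP replicate 4 was the lowest for 24.5% and the highest for 19.6%, and GFP replicate 2 the lowest for 17.7% and the highest for 18.6%. The median deviation of the 9 genes from their own mean was -0.32 on the log2 scale in GFP replicate 4 and 0.22 in GFP replicate 2, while the 4 LCN2 samples ranged from -0.10 to 0.09. Adipocyte markers took a like order within the GFP group, with summed normalized counts of 855426, 1346840, 1121540 and 804215 in GFP replicates 1 to 4. Alas1, Alad, Urod, Fech and Hmox2 followed the same order there, and Uros, Cpox, Ppox and Hmox1 did not. Within the LCN2 group the sums were 946592, 859185, 802369 and 1001760 in replicates 1 to 4, and no heme gene followed that order. The part of adipocyte markers in the levels of the heme genes was not tested. In subcutaneous fat the deviations were smaller. LCN2 replicate 3 was the highest sample for 6 genes, with a median deviation of 0.14, and GFP replicate 4 the lowest for 4, with -0.12, beside 21.2% and 13.3% of all genes tested. Cpox and Ppox departed from the others, since both lay above their mean in GFP replicate 4 of each depot, where most other heme genes lay below.

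**Figure D4:**
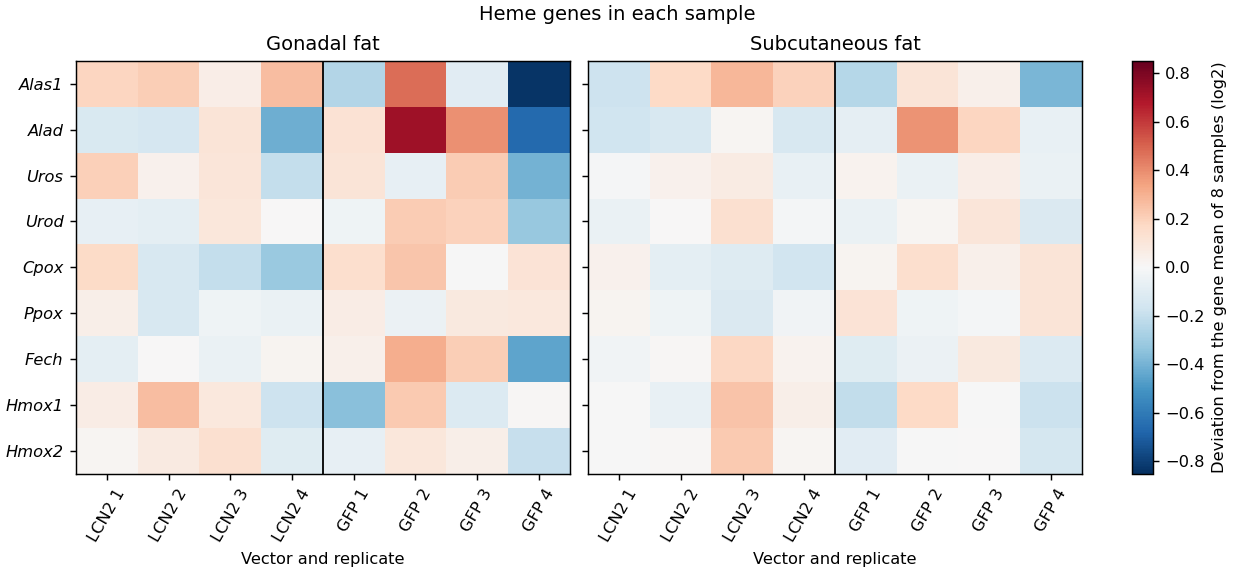
Log2 deviation of each heme gene from its mean over the 8 samples of a depot, with LCN2 samples left of GFP samples in gonadal (left) and subcutaneous fat (right). Blue cells of Alas1, Alad, Uros, Urod, Fech and Hmox2 fill the column of gonadal GFP replicate 4, whose median deviation is -0.32.

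Per length, Alas1 and Alad had the highest mean levels of the 9 genes. The level of Alas1 in gonadal fat, as RPKM, which divides recovered reads by exon length and library depth, was 29.3 ± 2.81 with LCN2 and 23.8 ± 7.49 with GFP (SD, n = 4 each). Alad stood at 16.5 ± 1.85 RPKM with LCN2 and 20.9 ± 6.32 with GFP, and Hmox1 at 15.7 ± 1.96 with LCN2 and 14.7 ± 2.93 with GFP. With the length of 1 principal transcript per gene in place of all exons, the mean over all 8 samples was 17.0 RPKM for Hmox1, against 28.0 for Alad and 23.7 for Urod. Urod followed at 13.4 ± 0.561 RPKM with LCN2 and 13.8 ± 1.17 with GFP, and Hmox2 at 11.8 ± 0.604 with LCN2 and 11.4 ± 0.468 with GFP. Lower levels were those of Fech (6.82 ± 0.476 RPKM with LCN2 and 7.18 ± 0.970 with GFP), Ppox (5.88 ± 0.304 with LCN2 and 6.34 ± 0.831 with GFP), Uros (4.48 ± 0.443 with LCN2 and 4.30 ± 0.445 with GFP) and Cpox (1.62 ± 0.234 with LCN2 and 1.93 ± 0.236 with GFP). Not all neighbours in that order were separated. By the length of all exons, Alad exceeded Hmox1 in 6 of 8 samples and Hmox1 exceeded Urod in 5 of 8. Fech exceeded Ppox in 7 of 8, and each other step held in 8 of 8. The middle of the order depended on the length used. By principal transcripts, the means over all 8 samples were 15.1 RPKM for Ppox, 14.9 for Hmox2 and 14.7 for Fech. Subcutaneous rlog, reduced by log2 of the exon length, gave the same first pair, Alas1 and Alad, and the same last pair, Uros and Cpox. There Urod exceeded Hmox1 in 4 of 8 samples and Ppox exceeded Fech in 7 of 8. By principal transcripts the subcutaneous mean of Ppox, 9.10, lay above those of Hmox1 and Hmox2, each 8.94.

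Alas1 and Alad were also compared as their ratio within each sample. This ratio was singled out after its values were seen and is given as a description. On the log2 scale, per kilobase, it was 0.82, 0.86, 0.46 and 1.19 in gonadal LCN2 samples and 0.14, 0.26, 0.02 and 0.33 in gonadal GFP samples. In subcutaneous fat it was 0.38, 0.68, 0.65 and 0.71 in LCN2 samples and 0.21, 0.11, 0.24 and 0.05 in GFP samples. LCN2 samples thus lay above all GFP samples in both depots, with means of 0.83 ± 0.30 with LCN2 and 0.19 ± 0.14 with GFP in gonadal fat, and 0.60 ± 0.15 with LCN2 and 0.15 ± 0.09 with GFP in subcutaneous fat (SD, n = 4 each). Expressed linearly, Alas1 had 1.78 times the level of Alad with LCN2 and 1.14 times with GFP in gonadal fat, and 1.52 times with LCN2 and 1.11 times with GFP in subcutaneous fat, taken from rlog.

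Other pairs of genes separated between vectors as well. Of the 36 pairs of heme genes, 1 did not overlap in gonadal fat (2.78%), against 9.18% of 93934071 pairs among 13707 genes with a mean normalized count of at least 100 and a mean rlog of at least 6. In subcutaneous fat 8 of the 36 pairs did not overlap (22.2%), against 8.05%, and 5 of these 8 pairs hold Alad, so they are not independent. Only Alas1 over Alad separated the same way in both depots, 2.78% of the heme pairs against 1.89% of all pairs. The share is close to the background, and nothing particular to the heme genes is read from it. The ratio of Hmox1 to Hmox2 overlapped between vectors, at 0.40 ± 0.11 with LCN2 and 0.35 ± 0.23 with GFP in gonadal fat and 0.20 ± 0.05 with LCN2 and 0.21 ± 0.12 with GFP in subcutaneous fat (log2, SD, n = 4 each).

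**Figure D5:**
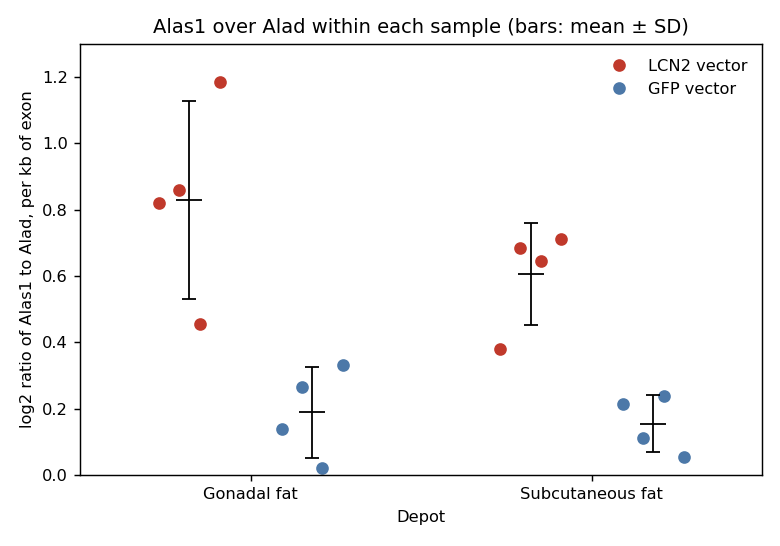
Log2 ratio of Alas1 to Alad, each per kilobase of exon, within each sample of gonadal (left) and subcutaneous fat (right), LCN2 samples in red left of GFP samples in blue, with bars for mean ± SD. LCN2 samples lie at 0.46 to 1.19 and GFP samples at 0.02 to 0.33 in gonadal fat, and LCN2 samples at 0.38 to 0.71 and GFP samples at 0.05 to 0.24 in subcutaneous fat.

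In the 4 lists of related genes, limma called 0 genes in either depot. Among 15 further genes of heme synthesis and mitochondrial transport, 10 were higher and 5 lower with LCN2 in gonadal fat (median difference 0.08) and 9 were higher and 6 lower in subcutaneous fat (0.03), beside medians over all genes of 0.01 and 0.00. At an unadjusted p under 0.05 were 1 of the 15 in gonadal and 2 in subcutaneous fat, beside 14.8% and 14% of all genes. Abcb10, a mitochondrial transporter linked to heme synthesis, differed by 0.35 in gonadal and 0.13 in subcutaneous fat. Clpx, the chaperone that activates and turns over Alas1 protein, differed by 0.18 in gonadal and 0.14 in subcutaneous fat. The erythroid form Alas2 had normalized counts of 388, 980, 235 and 340 in gonadal LCN2 samples and 360, 221, 481 and 518 in gonadal GFP samples, and erythroid markers, 7 of 11 past the filter, summed to 37735 to 130984 with LCN2 and 40911 to 78211 with GFP. Their part in the heme gene levels was not tested.

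Genes of heme transport, scavenging and bile pigments, 14 in all, had 9 higher and 5 lower members in each depot (median differences 0.07 and 0.06). Of the 14, 7 had an unadjusted p under 0.05 in gonadal fat, where 14.8% of all genes did, and 5 in subcutaneous fat, where 14% did. Blvra reduces biliverdin, the product of the heme oxygenases, to bilirubin. Its normalized counts were 1203, 1047, 1103 and 1041 in gonadal LCN2 samples, against 760, 756, 841 and 904 in gonadal GFP samples. LCN2 samples lay above all GFP samples, with a difference of 0.43 ± 0.09 (SE) that did not pass after adjustment (limma, adjusted p = 0.124). Flvcr2, a membrane transporter of choline, averaged 113 ± 17.9 with LCN2 and 223 ± 63.6 with GFP in gonadal fat (SD, n = 4 each), without overlap and also without passing (-0.94 ± 0.22, SE; limma, adjusted p = 0.157). Slc48a1, which carries heme out of lysosomes, had rlog means of 12.59 ± 0.19 with LCN2 and 12.20 ± 0.12 with GFP in subcutaneous fat (SD, n = 4 each), without overlap, and did not pass (limma, adjusted p = 0.308). The heme-binding protein Hebp1 differed by 0.36 there and by 0.33 in gonadal fat. Blvra differed by 0.31 and Flvcr2 by -0.08 in subcutaneous fat, and Slc48a1 by 0.24 in gonadal fat. On recovered gonadal reads edgeR called 0 of the 14 and DESeq2, which called 3.84% of all genes, called 3, Blvra, Flvcr2 and Hp, the plasma protein that binds free hemoglobin.

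The 12 heme-responsive regulators had 5 higher and 7 lower members in gonadal fat (median -0.06) and 6 each in subcutaneous fat (-0.01). The heme-binding clock repressor Nr1d2 averaged 3286 ± 593 normalized counts with LCN2 and 4821 ± 756 with GFP in gonadal fat (SD, n = 4 each), with overlap, and did not pass (limma, adjusted p = 0.181). In subcutaneous fat Nr1d2 differed by -0.15. Nfe2l2, an activator of Hmox1 transcription, differed by -0.12 in gonadal and 0.02 in subcutaneous fat. The heme-regulated kinase Eif2ak1 differed by 0.09 in subcutaneous and 0.06 in gonadal fat. Nrf1 differed by -0.15 in subcutaneous and 0.06 in gonadal fat. Among 21 genes of heme proteins, 13 were higher and 8 lower in gonadal fat (median 0.04) and 12 were higher and 9 lower in subcutaneous fat (0.03). Nos3, endothelial nitric oxide synthase, differed by 0.73 and Cyp1b1 by -0.54 in gonadal fat, and by 0.36 and -0.08 in subcutaneous fat. The globin Cygb differed by 0.34 and Ptgs1, cyclooxygenase-1, by 0.39 in subcutaneous fat, and by 0.05 and 0.04 in gonadal fat. At an unadjusted p under 0.05 were 1 of 12 regulators in gonadal and 0 in subcutaneous fat, and 3 of 21 heme protein genes in each, beside the same 14.8% and 14% of all genes. None of the named genes of the 4 lists passed (limma, lowest adjusted p of each list between 0.124 and 0.321 in gonadal and between 0.308 and 0.355 in subcutaneous fat), while on recovered gonadal reads DESeq2 called Nr1d2 and Nos3, and edgeR called 0 regulators (lowest adjusted p = 0.197) and 0 heme protein genes (lowest adjusted p = 0.215).

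Likeness between genes was measured as the lower of the 2 depots' Pearson r, over the 8 samples of a depot after subtracting each vector group's mean, among 11454 genes. Closest to Alas1 were Ppa1, a pyrophosphatase (r of 0.97 in gonadal and 0.97 in subcutaneous fat), Arl6ip1 (0.96 and 0.95) and Cyb5a, cytochrome b5 (0.94 and 0.95). Closest to Hmox1 were Cpxm1 (0.91 and 0.87), the lysosomal hexosaminidase subunit Hexa (0.84 and 0.81) and Borcs6 (0.84 and 0.80). Samples of a depot share their tissue composition and scaling, so these values are a description.

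The differences were also taken without the libraries that carried transcripts of other tissues, a choice made after seeing the data. Without the 2 gonadal libraries with the highest median of muscle markers the difference of Alas1 was 0.54, that of Alad -0.00474, that of Cpox -0.14 and that of Hmox1 0.29. Without LCN2 replicate 4 alone, the library with the high sum of muscle markers, it was 0.33 for Alas1, -0.20 for Alad, -0.18 for Cpox and 0.20 for Hmox1. Without the 3 gonadal hepatocyte libraries it was 0.31 for Alas1, -0.30 for Alad, -0.37 for Cpox and -0.08 for Hmox1. In subcutaneous fat without GFP replicates 1 and 2 it was 0.29 for Alas1, -0.17 for Alad, -0.16 for Cpox and 0.15 for Hmox1. That fit kept LCN2 replicate 4, which had the next highest sum of B and T cell markers. No heme gene was called in any of these fits (limma). Over all genes, 0 were called without the muscle libraries, the hepatocyte libraries or subcutaneous GFP replicates 1 and 2. Without gonadal LCN2 replicate 4 alone 3 were called, so these counts do not set the heme genes apart.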

How the data were processed

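Frozen fat gave RNA of an integrity number over 8.2 for stranded mRNA libraries, per the labels' protocols. The submitters' processing notes name HISAT2, DESeq2 and the builds GRCm38 and mm10. Not given in the sources used here were tool versions, the counter and its strand setting. Gonadal values were deposited as a signal per gene: the authors divided each read count by 1 size factor per sample, and the result is called a normalized count. Reads were recovered from the step of each sample, and 100% of values were whole to 1e-06. A floor of 3 reads is 0.0699 to 0.0853 CPM, counting error alone. Subcutaneous values are the rlog, a log2 scale, that the authors deposited, and their depth is unknown. The tables were normalized separately, so tests were run within a table. Replicate numbers came from the labels.

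Differences are LCN2 minus GFP. Normalized counts were tested as log2 of the value plus 1, for 19536 genes with a mean of at least 10, and rlog values as deposited, for 20302 genes with a mean of at least 3, with limma 3.58.1 in R 4.3.3 and Benjamini-Hochberg adjustment over all genes tested. On the first scale the change of low genes is understated. edgeR 4.0.16 and DESeq2 1.42.0 were run on recovered reads as alternatives, beside other scalings, filters, pseudocounts, weights, a replicate block and leaving out each sample. Scripts were tested on simulated data. Symbols matched 99.2% of identifiers in each table. Levels per length used the union of exons of GENCODE M21, on GRCm38. A set of transcript lengths gave the same first and last pairs but another order between them.

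The 9 genes and all lists were chosen with earlier results of these data known. Text names all 9 genes, Lcn2, and of each list of related genes the 2 with the smallest p per depot at a mean of at least 100, or rlog 6. Alas2, Hp and the ratio of Alas1 to Alad were added after values were seen. A gene taken by this rule is not reported here. No 2 libraries of the same vector agreed within sampling noise in gonadal fat, and libraries of different vectors were not compared in this way.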

Additional observations from a re-analysis of the deposited data

Results flagged for a closer look

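Hmox2 in subcutaneous fat was flagged for 1 sample far from the others of its group. In the LCN2 group replicate 3 had an rlog of 9.95, and the gap to the next sample was 0.931 of the group's whole range, above the critical value for 4 samples. Of 36 groups of 4 looked at, 1 was flagged, and chance flags about 1 in 20. Without LCN2 replicate 3 the difference of Hmox2 was 0.07 in place of 0.12.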

How the results depend on the processing

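In every one of the 19 gonadal and 15 subcutaneous alternatives, 0 of the 9 heme genes were called. The lowest adjusted p was 0.143 in gonadal fat (Alad without GFP replicate 4) and 0.0746 in subcutaneous fat (Alad with sample quality weights). Of the gene-wise differences, 162 of 171 kept their sign in gonadal and 129 of 135 in subcutaneous fat. Leaving out single samples spanned -0.138 to 0.0414 for Urod, -0.215 to 0.0380 for Fech and -0.0491 to 0.155 for Uros in gonadal fat, and -0.00786 to 0.0712 for Urod and -0.00645 to 0.0398 for Uros in subcutaneous fat. Signs also turned for gonadal Urod (0.0369) and Fech (0.0202) without the muscle libraries, for gonadal Urod (0.0203) and Hmox1 (-0.0830) without the hepatocyte libraries, and for subcutaneous Hmox1 (-0.0161) with sample weights; the cause was not tested. Both removals, and that of the lymphocyte libraries, were chosen after seeing the data. The count of all gonadal genes called, 20 (8 higher), was 11 at a mean of at least 50, 6 (4 higher) scaled by library totals, 7 with edgeR, 776 with DESeq2, 0 without the muscle libraries (1689 at an unadjusted p under 0.05), 0 without the hepatocyte libraries (1622), and 1 to 66 leaving out single samples, the highest without GFP replicate 4. With a replicate block it was 0 (2636 at an unadjusted p under 0.05). Same-numbered samples correlated between -0.359 and 0.424 in gonadal fat, so the numbers were not taken to pair samples, and the block called 0 heme genes in either depot. Subcutaneous counts were 0 throughout, with 919 to 5831 genes at an unadjusted p under 0.05. With 4 samples a group, differences inside the 95% intervals given could not be resolved.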
